A study of Mus musculus with 28 samples.

Results

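The genes described here are 40 that make or use the cell's reducing power: targets of the transcription factor NRF2, the enzymes that make and spend glutathione, and the enzymes of the pentose phosphate pathway. They were chosen by name, with earlier results of these data known. All 40 were found in each of the 3 deposited tables. These held 17752 gene symbols for livers and 56748 and 21959 Ensembl identifiers for the macrophage cultures of NFATc3-MKI and ASK1-MKI. All 40 passed the filter on low counts in livers. In the cultures 32 and 36 of them did, the missing members being mostly glutathione S-transferases.

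NRF2, encoded by Nfe2l2, is held in the cytoplasm and marked for destruction by KEAP1. Oxidants and electrophiles modify KEAP1, NRF2 then reaches the nucleus, pairs with a small MAF protein and binds antioxidant response elements near its targets. Those targets import cystine, join it into glutathione, attach glutathione to reactive compounds and pump the conjugates out of the cell, and the pentose phosphate pathway supplies the NADPH that keeps glutathione and thioredoxin reduced. In liver most of these enzymes are made by hepatocytes, while heme oxygenase is also a marker of macrophages that clear red blood cells.

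The livers came from male mice that were 8 weeks old when they began a diet lacking methionine and choline, which they ate for 4 weeks. Methionine is also a source of the cysteine in glutathione, and every liver group, controls included, was on this diet. The 4 groups of 4 livers were labelled Lyz2-Cre (the control, carrying the Cre recombinase of myeloid cells), NFATc3-MKO, ASK1-MKO and MDKO, the last of them the knockout of both genes, NFATc3 being a calcium-dependent transcription factor and ASK1 a stress-activated kinase encoded by Map3k5. The alleles deleted or inserted are not spelled out in the labels. The 12 cultures were labelled as bone marrow cells turned into macrophages by 7 days with 30% L929-conditioned medium, which supplies the growth factor M-CSF, and were labelled NFATc3-MKI or ASK1-MKI (knock-in) with a separate Lyz2-Cre control set each, 3 cultures per group. Lyz2 is active in macrophages, monocytes and neutrophils, so a liver's RNA, which is mostly that of hepatocytes, comes largely from cells in which the alleles are not targeted. In these bulk samples fewer cells of a type and less RNA per cell cannot be told apart.

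An antioxidant response element has the core letters TGACNNNGC, or GCNNNGTCA on the other strand. RefSeq promoter windows (GRCm38.p6), which run from 250 bases before to 50 after a transcription start, were at hand for 34 of the 40 genes, and 14 of these (41.2%) held the core on either strand. The same letters were in the windows of 3781 of 27025 genes (14.0%) and in 12.4% of all windows of this length. The sequences that follow are from 8 of these 14 genes, each a member whose RNA changed in at least 1 comparison, and are written 5′ to 3′ along the gene with the core in capitals.
Nfe2l2: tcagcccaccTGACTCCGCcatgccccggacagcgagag
Gsta3: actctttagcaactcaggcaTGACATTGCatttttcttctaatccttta
Abcc4: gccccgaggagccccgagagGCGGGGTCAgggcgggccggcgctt
G6pdx: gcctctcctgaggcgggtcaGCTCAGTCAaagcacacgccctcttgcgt
Gclm: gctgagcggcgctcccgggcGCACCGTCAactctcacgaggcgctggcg
Prdx1: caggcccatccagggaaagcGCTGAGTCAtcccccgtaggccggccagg
Txnrd1: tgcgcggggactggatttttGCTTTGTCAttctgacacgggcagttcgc
Mgst1: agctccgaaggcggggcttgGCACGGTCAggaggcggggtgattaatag
Their places are chr2:75704875-75704913 on the minus strand for Nfe2l2, chr1:21240444-21240492 on the plus strand for Gsta3, chr14:118706220-118706264 on the minus strand for Abcc4, chrX:74428909-74428957 on the minus strand for G6pdx, chr3:122245403-122245451 on the plus strand for Gclm, chr4:116685446-116685494 on the plus strand for Prdx1, chr10:82859094-82859142 on the plus strand for Txnrd1 and chr6:138140451-138140499 on the plus strand for Mgst1. The core also stood in windows of Pgd, Sod1, Srxn1 and Ugdh, which changed in cultures and are not printed, and of Abcc2 and Me1, which passed in no comparison. A match is a description of letters and not a measured binding site.

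The shallowest liver library, MDKO replicate 3, held 8912117 counts, and the other 15 held 20601168 to 30834547. Libraries of the NFATc3-MKI set held 7693464 to 9398163 and those of the ASK1-MKI set 16051951 to 18728508. The targeted genes did not all follow the labels. Nfatc3 stood at 28.3 ± 5.78 CPM (counts scaled to a common library total, TMM-adjusted; SD, n = 4) in livers labelled NFATc3-MKO against 36.3 ± 3.94 in the controls (log2 change −0.36 ± 0.14 SE, edgeR adjusted p = 0.12), while Map3k5 rose in livers labelled ASK1-MKO, from 30.9 ± 2.21 to 46.3 ± 6.12 CPM (log2 change 0.58 ± 0.15 SE, edgeR adjusted p = 0.0262). Neither gene passed in livers labelled MDKO against controls, where Nfatc3 stood at 36.6 ± 4.60 CPM (log2 0.01 ± 0.14 SE) and Map3k5 at 30.6 ± 2.15 (log2 −0.01 ± 0.15 SE). In the cultures, Nfatc3 fell in those labelled NFATc3-MKI (log2 change −0.26 ± 0.10 SE, edgeR adjusted p = 0.0371) and Map3k5 fell in those labelled ASK1-MKI (log2 change −0.16 ± 0.06 SE, edgeR adjusted p = 0.0266). The groups are therefore called by their labels only. The cell type of the NFATc3-MKI set is given by its label too. Its controls had lower levels of 6 listed macrophage markers than those of the ASK1-MKI set (Adgre1 at 33.6 against 2714 CPM, Cd68 at 814 against 1704). Whether both sets were grown as labelled was not tested.

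The MDKO libraries stood close to the controls in a particular way. Each MDKO library was nearer to the Lyz2-Cre library of the same number than to any other liver library, with a chi-square per degree of freedom of 13.7, 8.97, 2.31 and 7.62 for numbers 1 to 4. The nearest other Lyz2-Cre library gave 33.1, 24.0, 11.5 and 15.9, and the nearest other MDKO library 27.0, 14.5, 11.1 and 11.1. The measure was taken on raw counts and grows with depth where libraries differ beyond sampling noise. For MDKO numbers 1, 2 and 4 the nearest other MDKO library was replicate 3, the shallowest at 8912117 counts. What links the same-numbered libraries was not tested. The 3 ASK1-MKI cultures and their 3 controls differed within groups by only 1.59 to 1.99 on this scale, where sampling noise alone gives 1, and small differences passed the test there. The labels do not say whether replicates were separate animals or cultures, and p-values measure only the spread between these samples.

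In the control livers, levels per kilobase of exon (CPM per kb) spanned from 2914 for Ftl1, the ferritin light chain, to 0.467 for Slc7a11, the cystine importer. The microsomal and cytosolic transferases Mgst1 (987 CPM per kb) and Gstm1 (1041) came next to ferritin, followed by Gpx1, Fth1, Cat and Gstp1 at 525 to 564. Nfe2l2 itself stood at 25.3 CPM per kb and Keap1 at 9.30. At the low end, G6pdx, whose enzyme opens the pentose phosphate pathway, stood at 2.21 CPM per kb.

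The next comparison sets livers labelled ASK1-MKO, in which Map3k5 RNA was higher and not lower, against Lyz2-Cre livers on the same diet. Of the 40 members, 7 fell and none rose. They were the pump Abcc4, the transferases Gsta2, Gstm2 and Gsta4, heme oxygenase Hmox1, the regulator Nfe2l2 and the pentose phosphate enzyme Tkt. A gene counts as changed at a Benjamini-Hochberg adjusted p under 0.05 over all genes in edgeR's quasi-likelihood test. The 7 are 17.5% of the members, beside 8.46% of all genes tested that passed in either direction and 4% that were lower. The count was 4 without Lyz2-Cre replicate 4 or without ASK1-MKO replicate 1. The median log2 change over the 40 members was −0.26 (−0.16 without Lyz2-Cre replicate 1), against −0.03 over all genes, and 7 of the 40 had a value above 0. The groups did not overlap for 10 of 40 members (25%), beside 18.2% of all genes.

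**Figure D1:**
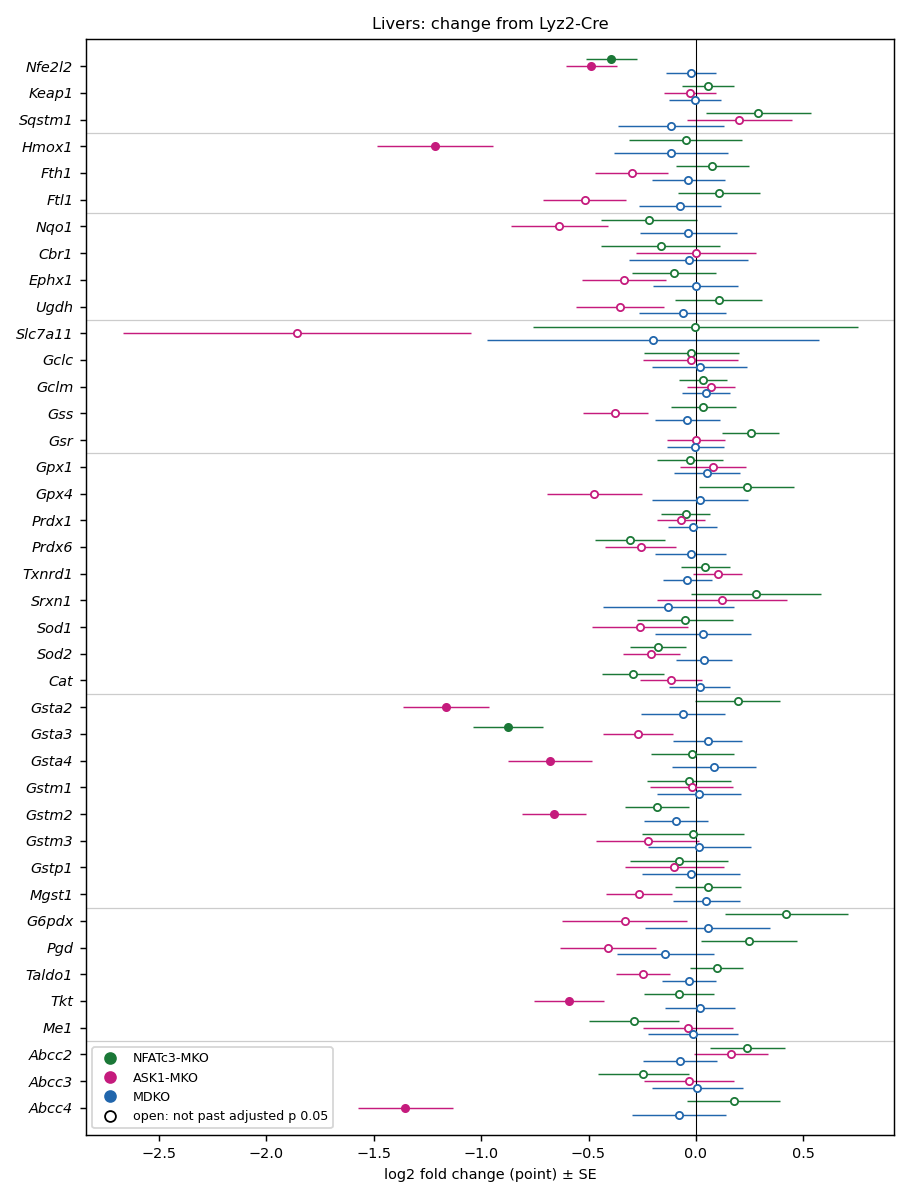
Log2 fold change (horizontal axis, point, with its standard error as the bar) of each of the 40 members, grouped by role, in NFATc3-MKO, ASK1-MKO and MDKO livers against the same 4 Lyz2-Cre livers. Filled points are past the adjusted p of 0.05: 2 for NFATc3-MKO, 7 for ASK1-MKO and none for MDKO, whose points lie near 0.

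Among the regulators, Nfe2l2 (ENSMUSG00000015839, chromosome 2, 75675513 to 75704641 in mm10, GENCODE M21, protein-coding) stood at 84.5, 99.3, 96.8 and 104 CPM in the Lyz2-Cre livers and at 62.5, 71.6, 68.7 and 71.7 CPM in the ASK1-MKO livers. All 4 ASK1-MKO values lay below the lowest control, with a log2 change of −0.49 ± 0.12 SE, edgeR adjusted p = 0.0167. It no longer passed when Lyz2-Cre replicate 4 or ASK1-MKO replicate 1 was left out (adjusted p up to 0.0619). Keap1, which holds NRF2 in check, stood at 49.6, 38.5, 41.8 and 44.8 CPM in controls and 44.2, 39.1, 47.0 and 41.2 in ASK1-MKO livers, overlapping values that gave a log2 change of −0.03 ± 0.12 SE, edgeR adjusted p = 0.922. Sqstm1, the autophagy receptor p62 that binds KEAP1, did not pass (log2 change 0.20 ± 0.25 SE, edgeR adjusted p = 0.669).

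Hmox1 (ENSMUSG00000005413, chromosome 8, 75093621 to 75100589) encodes the enzyme that opens the heme ring and releases its iron. It stood at 31.5, 51.4, 40.5 and 29.2 CPM in Lyz2-Cre livers and at 20.3, 14.9, 17.3 and 13.2 CPM in ASK1-MKO livers, where the highest library lay below the lowest control. The log2 change of −1.22 ± 0.27 SE, edgeR adjusted p = 0.011, was past the threshold under every alternative run. The ferritin chains that store the released iron did not pass (Fth1 log2 −0.30 ± 0.17 SE, Ftl1 log2 −0.52 ± 0.19 SE). Red cell markers fell beside Hmox1: 2 of 5 erythroid markers passed (Alas2 log2 −1.07, Hbb-bs log2 −0.78, none at 0), and their summed level was 129.6 to 255 CPM in ASK1-MKO livers against 263 to 404 in controls. The summed level of 6 macrophage markers overlapped (137 to 195 against 125 to 359.8 CPM, none of the 6 past the threshold). The part of red cells in the Hmox1 result was not tested.

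Of the 8 glutathione S-transferases, which join glutathione to reactive compounds, 3 fell and none rose. Gsta2 (ENSMUSG00000057933, chromosome 9, 78331018 to 78355788) stood at 116, 76.7, 90.3 and 91.4 CPM in controls and 40.7, 53.2, 42.2 and 31.0 in ASK1-MKO livers, a log2 change of −1.16 ± 0.20 SE, edgeR adjusted p = 0.00209. Gstm2 stood at 154, 125, 132 and 137 CPM in controls and 81.0, 89.0, 85.2 and 90.9 in ASK1-MKO livers (log2 change −0.66 ± 0.15 SE, edgeR adjusted p = 0.0113). Neither gene's groups overlapped, and both calls held under every alternative run. Gsta4, whose enzyme handles the lipid peroxidation product 4-hydroxynonenal, stood at 125, 73.5, 83.2 and 98.8 CPM in controls and 50.7, 71.1, 66.8 and 48.7 in ASK1-MKO livers (log2 change −0.68 ± 0.19 SE, edgeR adjusted p = 0.0391), with no overlap, but the call was lost in 7 of 14 alternatives (without the MDKO libraries, without Lyz2-Cre replicates 1, 3 or 4, and without ASK1-MKO replicates 1, 3 or 4; adjusted p up to 0.127). The other 5 (Gsta3, Gstm1, Gstm3, Gstp1 and Mgst1) ran from log2 −0.27 to log2 −0.02 without passing. Transferases of 1 class are close in sequence, so reads may be shared among them, and these values are uncertain to that extent.

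Abcc4 (ENSMUSG00000032849, chromosome 14, 118482692 to 118706219) encodes MRP4, a pump of the plasma membrane facing the blood that exports conjugates and bile acids. It had the smallest p of the 40: its level was 41.2, 48.2, 31.7 and 31.4 CPM in controls and 14.7, 10.6, 21.4 and 13.0 CPM in ASK1-MKO livers, without overlap, a log2 change of −1.35 ± 0.22 SE, edgeR adjusted p = 0.00158, that held under every alternative run. The pump of the bile canaliculus, Abcc2 (log2 0.16 ± 0.17 SE), and the other basolateral pump, Abcc3 (log2 −0.03 ± 0.21 SE), did not pass.

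Of the 5 genes for NADPH supply, Tkt, the transketolase of the non-oxidative pentose phosphate branch, fell. Its level was 204, 144, 166 and 166 CPM in controls and 109, 98.2, 138 and 107 in ASK1-MKO livers, with no overlap (log2 change −0.59 ± 0.16 SE, edgeR adjusted p = 0.0328), and the call was lost in 6 of 14 alternatives, each leaving out 1 library (Lyz2-Cre replicates 1, 3 or 4, ASK1-MKO replicates 1, 2 or 4; adjusted p up to 0.102). G6pdx stood at 4.46, 9.98, 6.45 and 6.34 CPM in controls and 5.18, 4.60, 5.91 and 5.96 in ASK1-MKO livers, overlapping (log2 change −0.33 ± 0.29 SE, edgeR adjusted p = 0.536). Pgd (log2 −0.41), Taldo1 (log2 −0.25) and Me1 (log2 −0.04) did not pass either.

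The genes that supply glutathione did not pass in this comparison. Slc7a11 stood at 2.90, 16.7, 4.12 and 2.32 CPM in controls and 0.945, 0.233, 4.25 and 1.74 in ASK1-MKO livers: Lyz2-Cre replicate 2 stood apart, the groups overlapped, and the log2 change of −1.86 ± 0.81 SE, edgeR adjusted p = 0.175, carries a wide error. Gclc, the catalytic subunit of the rate-limiting enzyme of glutathione synthesis, stood at 287, 389, 241 and 356 CPM in controls and 411, 244, 362 and 235 in ASK1-MKO livers (log2 change −0.02 ± 0.22 SE, edgeR adjusted p = 0.963). Its modifier Gclm (log2 0.07 ± 0.11 SE), Gss (log2 −0.38 ± 0.15 SE) and the glutathione reductase Gsr (log2 0.00 ± 0.13 SE) did not pass. Nqo1, the quinone reductase often used as a readout of NRF2, stood at 52.4, 31.2, 29.6 and 31.6 CPM in controls and 23.2, 29.4, 21.3 and 19.3 in ASK1-MKO livers. The groups did not overlap, and the log2 change of −0.64 ± 0.23 SE, edgeR adjusted p = 0.0917, missed the threshold. The other enzymes of its role ran from log2 −0.35 (Ugdh) to log2 0.00 (Cbr1), and the 9 genes that remove peroxide and superoxide from log2 −0.47 (Gpx4) to log2 0.12 (Srxn1), without a call.

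A few hepatocyte zonation markers changed beside these genes in ASK1-MKO livers. Of 8 pericentral markers, Lgr5 fell (log2 −0.93), and the list had a median of log2 −0.25. Of 8 periportal markers, Sds (log2 1.25) and Pck1 (log2 1.27) rose, while the list had a median of log2 −0.19 and none of its other 6 passed. The summed pericentral level was 8624 to 13228 CPM in ASK1-MKO livers and 12923 to 17681 in controls. Their part in the fall of the transferases was not tested.

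**Figure D2:**
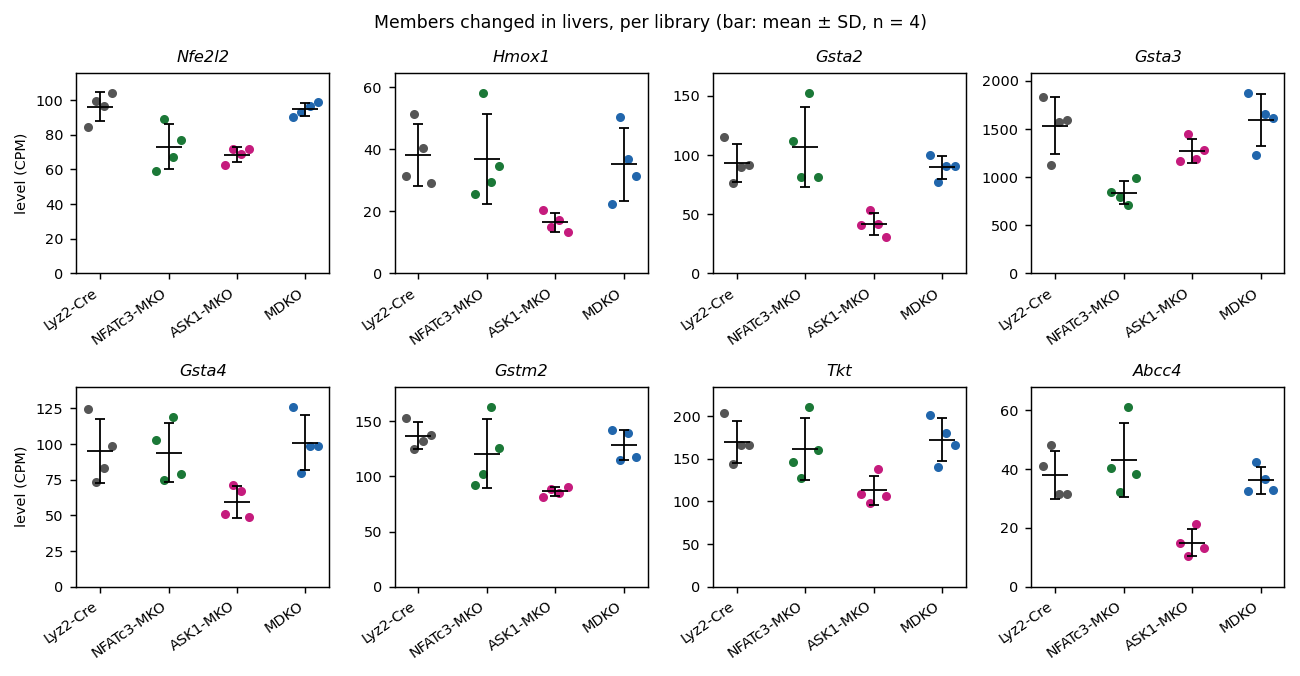
Levels in CPM (vertical axis, from 0) of the 8 members past the threshold against Lyz2-Cre in at least 1 liver group, with 1 point per library and the mean ± SD of 4 libraries as bars. ASK1-MKO points lie below all Lyz2-Cre points except for Gsta3, where the NFATc3-MKO points do, and MDKO points overlap the controls.

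Genes outside the 40 were counted over 3 further lists, beside 4.46% of all genes that rose and 4% that fell in ASK1-MKO livers. In ASK1-MKO livers, 2 of 25 other NRF2 circuit and target genes rose and 2 fell, 1 of 25 other glutathione genes tested rose and 2 fell, and 1 of 12 other pentose phosphate and NADPH genes fell. Those with the smallest p were Aldh1a7, an aldehyde dehydrogenase of liver (log2 change −1.41 ± 0.16 SE, edgeR adjusted p = 1e-04), Maff, a small MAF partner of NRF2 (log2 change 1.76 ± 0.21 SE, edgeR adjusted p = 1.82e-04), Akr1b8, an aldo-keto reductase (log2 change −1.06 ± 0.19 SE, edgeR adjusted p = 0.0024), and Gsta1, the close relative of Gsta2 (log2 change −1.28 ± 0.32 SE, edgeR adjusted p = 0.019). Of members whose windows held the core, 2 of 14 fell, and of those whose windows did not, 3 of 20. Hmox1 and Gsta4, which also fell, had no window at hand and are in neither count. The same split was not made over all genes.

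In NFATc3-MKO livers few members passed. Gsta3 fell, and with it, at the edge of the threshold, Nfe2l2: 2 of 40 members, beside 4.67% of all genes lower and 8.45% past the threshold in either direction, and no member rose. The median log2 change was −0.02 over the members and 0.03 over all genes. Gsta3 (ENSMUSG00000025934, chromosome 1, 21240589 to 21265661), an alpha-class transferase abundant in hepatocytes, stood at 1836, 1130.3, 1573 and 1599 CPM in controls and 847, 798, 707 and 995 CPM in NFATc3-MKO livers. All 4 NFATc3-MKO libraries lay below the lowest control, with a log2 change of −0.87 ± 0.16 SE, edgeR adjusted p = 0.00634, that held under every alternative run. It was the only member whose groups did not overlap (1 of 40, 2.5%, beside 12.8% of all genes).

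Nfe2l2 stood at 59.4, 89.3, 67.4 and 76.8 CPM in NFATc3-MKO livers, where replicate 2 overlapped the controls. It passed narrowly (log2 change −0.39 ± 0.12 SE, edgeR adjusted p = 0.0469), and the call was lost in 9 of 14 alternatives (adjusted p up to 0.196), among them the fit of only the groups compared, the fit without the MDKO libraries, and those without Lyz2-Cre replicates 2, 3 or 4 or NFATc3-MKO replicates 1, 3 or 4. The other 6 genes that fell in ASK1-MKO livers did not pass here. They were Hmox1 (25.7, 58.1, 29.4 and 34.5 CPM, log2 change −0.05 ± 0.27 SE, edgeR adjusted p = 0.927), Abcc4 (log2 0.18), Gsta2 (log2 0.19), Gsta4 (log2 −0.02), Gstm2 (log2 −0.18) and Tkt (log2 −0.08).

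The regulator Keap1 and 4 members of other roles did not pass either. Keap1 stood at 41.6, 38.9, 53.2 and 48.0 CPM (log2 0.06), Nqo1 at 30.8, 24.7, 44.0 and 25.0 (log2 −0.22) and Gclc at 422, 298, 277 and 258 (log2 −0.02). Slc7a11 stood at 1.96, 12.8, 4.96 and 6.38 CPM (log2 0.00) and G6pdx at 4.89, 15.8, 7.62 and 8.23 (log2 0.42). Each overlapped its controls. Markers of many cell types moved in these livers: of 5 neutrophil markers tested S100a8 (log2 2.21) and S100a9 (log2 2.45) rose, of 8 Kupffer cell markers Clec4f (log2 −1.14), C6 (log2 −0.91) and Cd163 (log2 −1.52) fell, and of 5 hepatocyte markers the regulator Hnf4a fell (log2 −0.55). The summed hepatocyte level was 64628 to 102687 CPM in NFATc3-MKO livers and 90003 to 121341 in controls, overlapping, with no Kupffer cell or hepatocyte marker at 0. Also higher were 2 of 4 B and plasma cell markers, 2 of 6 cholangiocyte markers tested, Acta2 of 6 stellate cell markers (log2 1.15) and Spp1 of 9 markers of macrophages that derive from monocytes or store lipid (log2 1.86, list median log2 1.17), and lower were 2 of 6 endothelial markers and Ass1 of 8 periportal markers (log2 −0.79). The part of these cells in the fall of Gsta3 was not tested.

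The further lists stood beside 3.77% of all genes higher and 4.67% lower. On them 2 of 25 NRF2 genes rose, 2 of 25 glutathione genes fell, and of 12 NADPH genes 1 rose and 1 fell. The smallest p belonged to Oplah, the 5-oxoprolinase that recycles glutathione's glutamate (log2 change −0.76 ± 0.17 SE, edgeR adjusted p = 0.0148), followed by Maff (log2 change 0.91 ± 0.21 SE, edgeR adjusted p = 0.0166), the NADPH-making transhydrogenase Nnt (log2 change 0.50 ± 0.12 SE, edgeR adjusted p = 0.0169) and Mafg (log2 change 0.41 ± 0.12 SE, edgeR adjusted p = 0.0435). Of members with the core in a window, 2 of 14 fell, and of those without, 0 of 20. The 2 were Gsta3 and Nfe2l2, the latter a call lost in 9 of 14 alternatives. The same split was not made over all genes, so these counts have no share to stand beside.

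In MDKO livers none of the 40 members passed against Lyz2-Cre, beside 0% of all genes. At an unadjusted p under 0.05, edgeR gave 0 of 40 members and 0.263% of all genes, far below the share of 0.05 that independent groups without a difference would give. Whether the MDKO libraries are related to or mixed with the controls was not tested. DESeq2's Wald test called 0 of 40 members and 0 genes at an adjusted p under 0.05. No member's groups were free of overlap (0 of 40, beside 0.466% of all genes), and the members' median log2 change was −0.02. Hmox1 stood at 22.2, 50.5, 36.7 and 31.4 CPM, Nfe2l2 at 90.5, 93.1, 96.4 and 98.8 and Gsta3 at 1872, 1228, 1659 and 1615, all overlapping the controls. Nqo1 was high in MDKO replicate 1 as in Lyz2-Cre replicate 1 (48.7, 31.3, 31.4 and 29.8 CPM in MDKO), and Slc7a11 was high in MDKO replicate 2 as in Lyz2-Cre replicate 2 (2.31, 12.0, 6.45 and 2.04 CPM in MDKO). Keap1 (50.4, 42.3, 41.2 and 39.8 CPM), Gclc (291, 392, 236 and 369.8) and G6pdx (5.83, 8.51, 6.33 and 7.49) overlapped their controls too. These values rest on libraries that each lie nearest a control library, as described above.

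Between the knockouts, 7 of 40 members were higher in MDKO than in ASK1-MKO livers and none lower, beside 3.46% and 4.26% of all genes and 7.72% in either direction. This comparison and that against Lyz2-Cre share the ASK1-MKO libraries. The changes were log2 1.28 ± 0.22 SE for Abcc4, log2 1.10 ± 0.20 SE for Gsta2, log2 1.10 ± 0.27 SE for Hmox1, log2 0.76 ± 0.20 SE for Gsta4, log2 0.61 ± 0.16 SE for Tkt, log2 0.57 ± 0.15 SE for Gstm2 and log2 0.46 ± 0.12 SE for Nfe2l2, with adjusted p from 0.00231 to 0.0298. Leaving out 1 library at a time left 2 (without MDKO replicate 3) to 6 calls, with 3 without ASK1-MKO replicate 1 and 4 without ASK1-MKO replicates 2 or 4 or MDKO replicates 1 or 4. Against NFATc3-MKO livers, Gsta3 was the 1 member that passed, higher in MDKO (log2 change 0.93 ± 0.16 SE, edgeR adjusted p = 0.00476), beside 4.06% of all genes higher, 3.29% lower and 7.35% in either direction, and 2 members passed without NFATc3-MKO replicate 2.

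ASK1-MKO livers differed from NFATc3-MKO livers in 9 of 40 members, 1 higher and 8 lower, beside 5.61% and 7.15% of all genes. Gsta3 was higher in ASK1-MKO (log2 change 0.60 ± 0.16 SE, edgeR adjusted p = 0.023), while Abcc4 (log2 −1.53), Gsta2 (log2 −1.36), Hmox1 (log2 −1.17), Gsta4 (log2 −0.66), Gstm2 (log2 −0.48), Tkt (log2 −0.52), the ferritin chain Ftl1 (log2 −0.63) and the lipid peroxide reductase Gpx4 (log2 −0.71) were lower. The calls of Abcc4, Gsta2 and Hmox1 held under every alternative, and that of Gsta3 was lost without NFATc3-MKO replicate 3 or ASK1-MKO replicate 2. NFATc3-MKO replicate 3 weighed on the others: without it 3 calls were left, and without ASK1-MKO replicates 1, 2 or 4 there were 5, 4 and 4. Ftl1 stood at 4219, 3380.1, 5771 and 3445 CPM in NFATc3-MKO and 3234, 2478, 2645 and 2544 in ASK1-MKO livers, with the third NFATc3-MKO library highest. Without that library the change of Gpx4 was log2 −0.37, that of Ftl1 log2 −0.43 and that of Gstm2 log2 −0.30. Over all alternatives the calls of Gstm2 and Tkt were each lost in 9 of 14, Gpx4 in 8, Ftl1 in 7 and Gsta4 in 4. Cell markers differed widely between the same groups. Higher in ASK1-MKO were 3 of 8 periportal markers (list median log2 0.49) and 1 of 5 hepatocyte markers (0.47). Of the 8 Kupffer cell and the 8 pericentral markers, 1 each was higher and 1 each lower. Of 6 stellate cell markers 1 was lower. Lower in ASK1-MKO were 5 of 5 erythroid markers (list median log2 −1.07), 7 of 9 markers of macrophages that derive from monocytes or store lipid (−1.63), 4 of 5 neutrophil markers tested (−2.50), 3 of 6 cholangiocyte markers tested (−1.38), 2 of 4 B and plasma cell markers and 1 of 6 macrophage markers. The summed erythroid level was 129.6 to 255 CPM in ASK1-MKO and 296 to 479 in NFATc3-MKO livers, and that of the 9 macrophage markers 109.8 to 209 and 144 to 1015, with none of either list at 0. The part of all these cells in the higher level of Gsta3 and the lower levels of Hmox1, Ftl1 and Gpx4 was not tested.

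The design also asks whether the double knockout differs from the sum of the single ones. The interaction, which is the change from NFATc3-MKO to MDKO less the change from Lyz2-Cre to ASK1-MKO, was above 0 and past the threshold for 6 of 40 members, beside 8.17% of all genes above 0 and 16.2% in either direction. The values were log2 change 1.20 ± 0.23 SE, edgeR adjusted p = 0.00234 for Gsta3 and log2 change 0.86 ± 0.17 SE, edgeR adjusted p = 0.00259 for Nfe2l2. Gstm2 (log2 0.75 ± 0.21 SE) and Abcc4 (log2 1.10 ± 0.31 SE) passed at adjusted p of 0.022 and 0.023, and these 4 held in all 20 alternatives. Gsta2 (log2 0.91 ± 0.28 SE) and Hmox1 (log2 1.15 ± 0.38 SE) were lost in 11 and 12 of 20 (adjusted p up to 0.0733 and 0.117). For Gsta2 these left out Lyz2-Cre replicates 1, 3 or 4, NFATc3-MKO replicates 2 or 4, ASK1-MKO replicates 1, 3 or 4 or MDKO replicates 1, 3 or 4. For Hmox1 they were the fit with no filter and those without Lyz2-Cre replicates 2 or 3, NFATc3-MKO replicates 1, 3 or 4, ASK1-MKO replicates 2, 3 or 4 or MDKO replicates 2, 3 or 4. With MDKO near the controls, this term is close to the negative of the changes of the single knockouts added together, and it rests on the MDKO libraries described above.

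The NFATc3-MKI cultures and their 3 controls were read in a table of their own. Of 32 members tested, 10 rose and 2 fell, beside 16.5% of all genes higher, 16.8% lower and 33.3% in either direction. The genes that rose were Sqstm1, Fth1, Hmox1, Srxn1, Gpx1, Prdx1, Prdx6, Sod2, the glutathione synthetase Gss and G6pdx. The glutathione enzyme Gclc and Tkt fell. The median log2 change of the 32 members was 0.07 (0.13 without NFATc3-MKI replicate 3), against 0.00 over all genes, and the groups did not overlap for 15 of 32 (46.9%), beside 45.8% of all genes. Changes of at least 1.5-fold were called in 3 of 32 members, beside 13% of all genes.

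Sqstm1 (ENSMUSG00000015837, chromosome 11, 50199366 to 50210827) showed the widest change: 484, 509 and 417 CPM in controls against 904, 825 and 922 in NFATc3-MKI (log2 change 0.91 ± 0.09 SE, edgeR adjusted p = 5.96e-08). Fth1, the ferritin heavy chain, stood at 9165, 8814 and 8132 CPM in controls and 13649.6, 15439 and 13316 in NFATc3-MKI (log2 change 0.70 ± 0.10 SE, edgeR adjusted p = 1.53e-05). Srxn1, the sulfiredoxin that restores oxidised peroxiredoxins, rose too (log2 change 0.69 ± 0.15 SE, edgeR adjusted p = 0.00104). None of the 3 overlapped.

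Hmox1 stood at 118, 129.9 and 103 CPM in controls and 163, 160.4 and 158 in NFATc3-MKI (log2 change 0.46 ± 0.09 SE, edgeR adjusted p = 4.61e-04). Gpx1, the cytosolic glutathione peroxidase, stood at 88.6, 68.7 and 80.3 and 99.3, 121 and 118 CPM (log2 change 0.51 ± 0.10 SE, edgeR adjusted p = 4.85e-04). Gclc stood at 79.4, 78.4 and 67.6 CPM in controls and 51.8, 55.4 and 46.7 in NFATc3-MKI and so fell (log2 change −0.55 ± 0.10 SE, edgeR adjusted p = 1.82e-04). These 3 had no overlap either. Prdx1, a peroxiredoxin, stood at 377, 429 and 443 CPM in controls and 529, 633 and 550.4 in NFATc3-MKI (log2 change 0.46 ± 0.09 SE, edgeR adjusted p = 4.9e-04), again without overlap, and Gss rose as well (log2 0.39 ± 0.10 SE). G6pdx stood at 109, 122 and 119 and 149, 138 and 139 CPM (log2 change 0.28 ± 0.09 SE, edgeR adjusted p = 0.014), a call lost without control replicate 1 or NFATc3-MKI replicate 1.

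The 3 smaller changes were Sod2 (log2 0.29 ± 0.09 SE), Prdx6 (log2 0.22 ± 0.08 SE) and Tkt (log2 −0.28 ± 0.09 SE). Prdx6 was lost in 6 of 10 alternatives (no filter, and without any of the 3 controls or NFATc3-MKI replicates 1 or 3), Sod2 without control replicates 1 or 3 or NFATc3-MKI replicate 3, and Tkt without control replicate 3 or NFATc3-MKI replicate 2 (log2 −0.17 without the latter). Nfe2l2 stood at 109, 114 and 91.5 and 109.6, 131 and 111 CPM (log2 change 0.16 ± 0.10 SE, edgeR adjusted p = 0.223), and Keap1 at 52.9, 61.3 and 55.0 and 50.9, 40.9 and 54.3 (log2 change −0.21 ± 0.11 SE, edgeR adjusted p = 0.143), both overlapping. Slc7a11 stood at 39.2, 55.2 and 44.5 and 43.3, 44.9 and 43.0 CPM (log2 change −0.08 ± 0.11 SE, edgeR adjusted p = 0.605). Nqo1 gave 1 count over the 3 controls and 1 over the 3 NFATc3-MKI cultures, and was not tested. Gsta2, Gsta3, Gstm2 and Gstm3 gave no count in any of the 6 libraries, and Gsta4, Mgst1 and Abcc2 did not pass the filter.

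Macrophage markers moved beside these genes. Of 6 macrophage markers 4 rose (Csf1r, Cd68, Lyz2 and Itgam, log2 0.28 to log2 0.57), and their sum was 1885 to 2070.3 CPM in NFATc3-MKI against 1501 to 1609 in controls. Of 9 markers of macrophages that derive from monocytes or store lipid, 5 rose, among them Spp1 (log2 2.17). Hepatocyte markers Alb, Ttr, Apoa1 and Serpina1c were at 0 in the controls. The part of macrophage state in the members' changes was not tested. The further lists stood beside 16.5% of all genes higher and 16.8% lower. On them 6 of 19 NRF2 genes tested rose and 4 fell, 5 of 17 glutathione genes rose and 2 fell, and 1 of 11 NADPH genes fell. The smallest p belonged to the glutaredoxin Glrx (log2 change 1.16 ± 0.10 SE, edgeR adjusted p = 6.65e-09), Akr1b8 (log2 change 0.74 ± 0.09 SE, edgeR adjusted p = 1.99e-06), Mafg (log2 change −0.71 ± 0.09 SE, edgeR adjusted p = 2.3e-06) and the mitochondrial NAD kinase Nadk2 (log2 change −0.67 ± 0.10 SE, edgeR adjusted p = 1.66e-05).

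**Figure D3:**
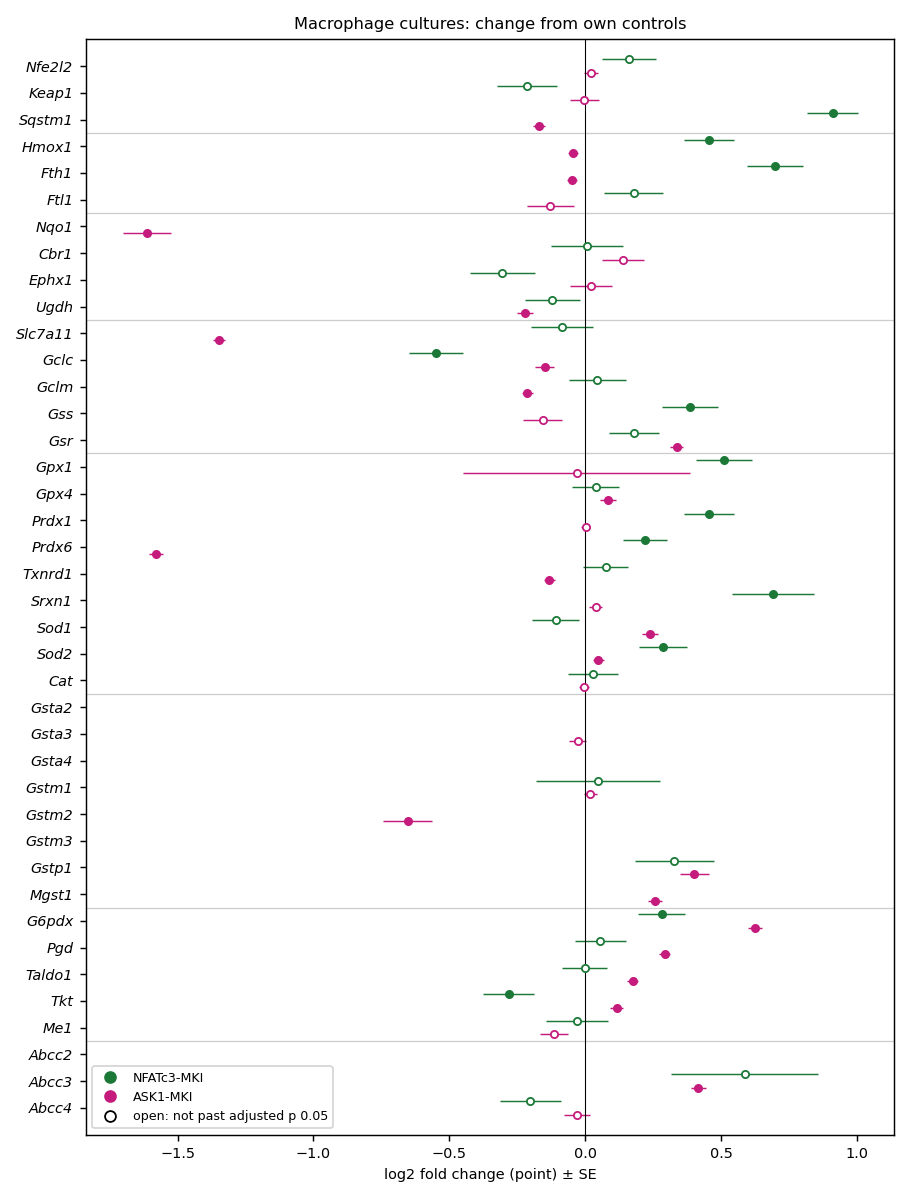
Log2 fold change (horizontal axis, point, with its standard error as the bar) of the members tested in NFATc3-MKI cultures and in ASK1-MKI cultures, each against its own 3 controls. Filled points are past the adjusted p of 0.05 (12 of 32 and 22 of 36), and members with no point did not pass the filter on low counts.

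In the ASK1-MKI cultures 11 of 36 members tested rose and 11 fell, beside 24.6% and 24.5% of all genes and 49.1% in either direction. The falls were led by Nqo1, Prdx6 and Slc7a11, none of them overlapping its controls, and 4 of the 5 genes for NADPH supply rose. The members' median log2 change was 0.00, as over all genes. Changes of at least 1.5-fold were called in 5 of 36 members (13.9%), beside 10.9% of all genes. The groups did not overlap for 22 of 36 members (61.1%), beside 54.5% of all genes. The replicates here varied little beyond sampling noise.

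Nqo1 (ENSMUSG00000003849, chromosome 8, 107388225 to 107403206) stood at 23.6, 25.7 and 25.1 CPM in controls and 7.97, 8.34 and 7.98 in ASK1-MKI (log2 change −1.61 ± 0.09 SE, edgeR adjusted p = 1.2e-35). Prdx6 (ENSMUSG00000026701, chromosome 1, 161240112 to 161251219), a peroxiredoxin that reduces phospholipid hydroperoxides, stood at 514, 499 and 511 CPM in controls and 174, 169 and 166 in ASK1-MKI (log2 change −1.58 ± 0.03 SE, edgeR adjusted p = 7.37e-94). Slc7a11 (ENSMUSG00000027737, chromosome 3, 49892526 to 50443614) stood at 1223, 1239 and 1279 CPM in controls and 493, 484 and 493 in ASK1-MKI (log2 change −1.35 ± 0.02 SE, edgeR adjusted p = 1.21e-95). For each of the 3 every ASK1-MKI value lay far below every control.

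Both subunits of the enzyme that starts glutathione synthesis fell by small amounts, Gclm (log2 −0.21 ± 0.02 SE) and Gclc (log2 −0.15 ± 0.04 SE), the latter from 110.4, 109 and 102 CPM to 97.1, 93.1 and 98.7, while the synthetase Gss did not pass (log2 −0.16 ± 0.07 SE). Gsr, which reduces oxidised glutathione with NADPH, rose from 332, 327 and 342 CPM to 425, 421 and 419.9 (log2 change 0.34 ± 0.02 SE, edgeR adjusted p = 5.55e-27). Among the transferases Gstm2 fell (log2 −0.65 ± 0.09 SE) and Gstp1 (log2 0.40 ± 0.05 SE) and the microsomal Mgst1 (log2 0.26 ± 0.03 SE) rose. Gsta3 stood at 139, 138 and 142 CPM in controls and 139, 139 and 134 in ASK1-MKI and did not pass (log2 change −0.03 ± 0.03 SE, edgeR adjusted p = 0.504).

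G6pdx (ENSMUSG00000031400, chromosome X, 74409483 to 74429194), the entry enzyme of the pentose phosphate pathway, stood at 232, 219.9 and 224 CPM in controls and 347, 349.7 and 346 in ASK1-MKI (log2 change 0.63 ± 0.03 SE, edgeR adjusted p = 2.89e-48). Pgd, the next NADPH-making enzyme, rose as well (log2 change 0.29 ± 0.02 SE, edgeR adjusted p = 8.79e-27). Taldo1 (log2 0.17 ± 0.02 SE) and Tkt (log2 0.12 ± 0.02 SE) rose by less, and Me1, the cytosolic malic enzyme, did not pass (log2 −0.11 ± 0.05 SE). Of the pathway's other genes 6 of 11 tested rose and none fell, beside 24.6% and 24.5% of all genes. Among the 6 was the NAD kinase Nadk (log2 change 0.31 ± 0.02 SE, edgeR adjusted p = 4.39e-23). Abcc3 rose as well, from 205, 198 and 196 CPM to 278, 257 and 264 (log2 change 0.42 ± 0.03 SE, edgeR adjusted p = 7.6e-29).

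Neither NRF2 nor KEAP1 changed in its RNA past the threshold. Nfe2l2 stood at 250.0, 254 and 261 CPM in controls and 260.0, 255 and 262 in ASK1-MKI (log2 change 0.02 ± 0.03 SE, edgeR adjusted p = 0.555), and Keap1 at 41.3, 39.3 and 39.9 and 40.4, 39.6 and 40.3 (log2 change 0.00 ± 0.05 SE, edgeR adjusted p = 0.972). Sqstm1 fell (log2 −0.17 ± 0.02 SE), as did Ugdh (log2 −0.22 ± 0.03 SE) and Txnrd1 (log2 −0.13 ± 0.02 SE), while Sod1 rose (log2 0.24 ± 0.03 SE). Hmox1 (5281, 5191 and 5464 CPM in controls, 5118, 5197 and 5130.4 in ASK1-MKI, log2 change −0.05 ± 0.02 SE, edgeR adjusted p = 0.0249) and Fth1 (log2 −0.05) were called lower although their groups overlapped. The calls of Hmox1, Fth1, Gpx4 (log2 0.08) and Sod2 (log2 0.05) were lost in 5, 4, 3 and 7 of 10 alternatives, DESeq2's Wald test among them for each. Hmox1 stood at log2 −0.02 without control replicate 3 and Fth1 at log2 −0.02 without ASK1-MKI replicate 1. Of the other NRF2 genes tested 12 of 21 rose and 5 fell, beside 24.6% and 24.5% of all genes. Of the glutathione genes 5 of 20 rose and 4 fell. These lists were led by Glrx (log2 change 1.05 ± 0.02 SE, edgeR adjusted p = 1.3e-76), the biliverdin reductase Blvrb (log2 change 0.47 ± 0.03 SE, edgeR adjusted p = 5.84e-36) and the secreted peroxidase Gpx3 (log2 change 1.26 ± 0.08 SE, edgeR adjusted p = 9.47e-28). Beside these genes 5 of 8 Kupffer cell markers fell (among them Marco log2 −1.59, Cd5l log2 −1.57), their sum being 294 to 316 CPM against 891 to 917 in controls, and 4 of 6 macrophage markers rose and 1 fell (log2 −0.18 to 0.50), with overlapping sums (35162 to 37149 against 33087 to 35430.0). Of 9 markers of macrophages that derive from monocytes or store lipid, 5 rose and 4 fell (log2 −2.44 to 2.39). Their part was not tested.

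The knock-ins have separate controls and separate tables, and the difference between them was not tested. Sqstm1 stood at log2 0.91 in NFATc3-MKI and log2 −0.17 in ASK1-MKI, Prdx6 at log2 0.22 and log2 −1.58, and Tkt at log2 −0.28 and log2 0.12. G6pdx rose in each (log2 0.28 and log2 0.63) and Gclc fell in each (log2 −0.55 and log2 −0.15). Also called in each were Sod2, higher in both, and Hmox1 and Fth1, higher in NFATc3-MKI and lower in ASK1-MKI. Their ASK1-MKI calls were small and lost in some alternatives. The share of all genes called in both sets was not counted. Of members whose windows held the core, 3 of 11 tested rose in NFATc3-MKI and none fell, and 4 of 13 rose and 3 fell in ASK1-MKI. Of those without it, 5 of 16 rose and 1 fell, and 5 of 18 rose and 5 fell. Members with no window at hand are not counted here, and the same split was not made over all genes.

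The 2 sets of control cultures, which carry the same labels of genotype and growth, stood far apart in these genes. On identifiers shared by both tables (21958, of which 11881 reached 1 CPM in either set), 21 of 36 members (58.3%) were at least 2-fold higher in the controls of the ASK1-MKI set, beside 22.6% of all genes, and 2 (5.56%) at least 2-fold lower, beside 33.1%. Nqo1, Gsta3, Gstm2 and Mgst1 reached 1 CPM only in the controls of the ASK1-MKI set. Their place among the 21 therefore follows from this rule, which was applied to all genes alike. Gpx1 reached 1 CPM only in the controls of the NFATc3-MKI set. The median log2 difference was 1.54 over the members and −0.31 over all genes. Levels in this comparison are CPM of the shared identifiers without TMM, so they differ slightly from those above. No test was made, since the tables were made separately and the set cannot be told apart from the library preparation, counting or culture.

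**Figure D4:**
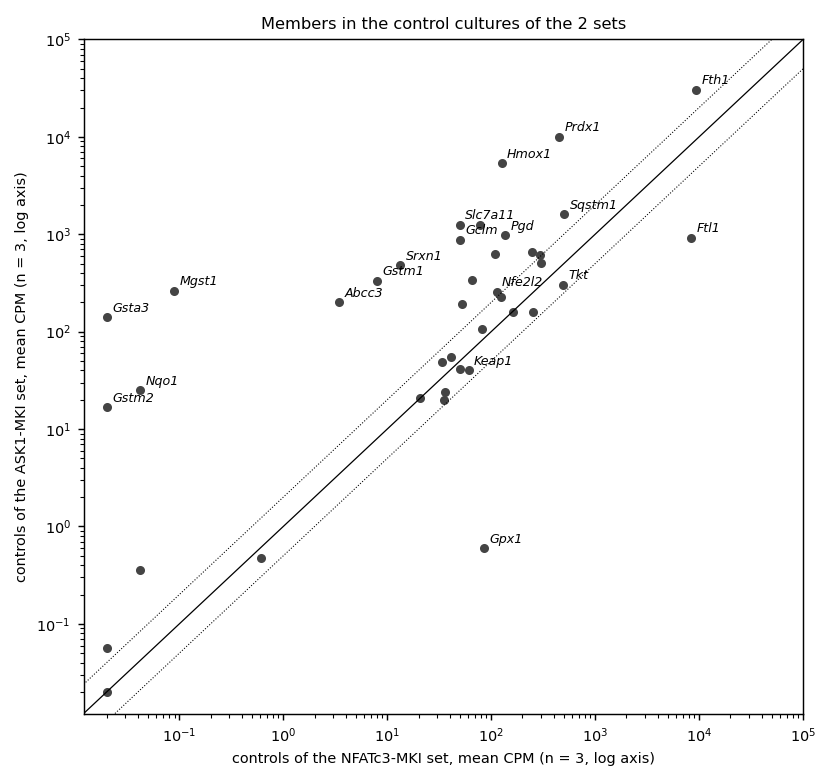
Mean CPM of the 40 members in the 3 controls of the NFATc3-MKI set (horizontal axis) and of the ASK1-MKI set (vertical axis), both on log axes, with the line of equal levels and dotted lines at 2-fold, and levels of 0 drawn at 0.02 CPM. Hmox1, Slc7a11, Srxn1, Gclm and Prdx1 lie far above the line, and Ftl1 and Gpx1 below it.

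Hmox1 stood at 126 ± 14.3 CPM (SD, n = 3) in the controls of the NFATc3-MKI set and 5354 ± 126 in those of the ASK1-MKI set, a level 42.6-fold higher. Slc7a11 stood at 49.9 ± 9.36 and 1257 ± 27.1 CPM (25.2-fold) and Gclm at 49.9 ± 3.77 and 882 ± 17.7 (17.7-fold). Srxn1 was 35.7-fold, Prdx1 22.3-fold, Cat 15.9-fold, Gstm1 41.9-fold and Abcc3 58.2-fold higher. These members, named for their wide differences, come from several roles, from cystine import to export. Others of the same roles did not follow. Gss stood at 0.659-fold, Sod1 at 0.629-fold, Gstp1 at 0.824-fold, Gpx4 at 0.990-fold and Abcc4 at 1.34-fold.

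Some members were nearly silent in the NFATc3-MKI set. Gsta3 gave 0 counts over its 3 controls and 7548 in the other set, at least 1074-fold higher with a floor of 3 counts over the group, and Gstm2 gave 0 and 895 counts, at least 128-fold higher. Nqo1 gave 1 and 1339 counts, and Mgst1 2 and 14097 counts. The floor covers counting error only. Nfe2l2 itself stood at 113 ± 12.0 and 257 ± 5.48 CPM (2.28-fold), Keap1 at 60.7 ± 5.37 and 40.5 ± 0.980, Gclc at 80.7 ± 6.11 and 108 ± 4.90, and G6pdx at 126 ± 9.84 and 227 ± 5.82. Ftl1 (8381 ± 534 and 919 ± 46.5 CPM) and Gpx1 (85.1 ± 9.67 and 0.599 ± 0.0952) went the other way. Both have near-identical copies elsewhere in the genome, which counting can treat differently, and their levels here and above are uncertain. The limit of shared reads given above for the transferases holds here for Gstm1, Gsta3 and Gstm2 too. The part of such copies was not tested for members that went either way.

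Markers of the labelled cell type differed between the same control sets. Adgre1, which encodes F4/80, stood at 33.6 ± 1.12 and 2714 ± 22.6 CPM, Lyz2 at 421 ± 24.5 and 28338 ± 1271, and Csf1r at 299.8 ± 10.2 and 1533 ± 9.86. Mertk gave 2 counts over the 3 controls of the NFATc3-MKI set and 11250 in the other. Itgam (108 ± 4.29 and 406 ± 4.73 CPM) and Cd68 (814 ± 67.9 and 1704 ± 20.8) differed less. Marco, a Kupffer cell marker, gave 0 and 40019 counts. Spp1 (4580 ± 309 and 667 ± 10.4 CPM) and Cd9 (335 ± 3.86 and 145 ± 2.61) went the other way. They belong to the markers of macrophages that derive from monocytes or store lipid, whose others were higher in the ASK1-MKI set. All 6 macrophage markers had counts in each set, and their part in the members' differences was not tested.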

How the data were processed

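RNA of 16 livers and 12 macrophage cultures was measured by strand-specific sequencing, aligned with HISAT2 to mm10 per the submitters' processing notes. Which counter, strand setting and gene models were used is not given in the sources used here. For livers the deposited values are estimated counts that the authors made from those alignments, 85.42% of them whole. They were rounded to whole numbers. The 2 culture tables deposited by the authors hold whole, raw counts.

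Each table was fitted separately with edgeR 4.0.16 in R 4.3.3 (filterByExpr, TMM, robust quasi-likelihood F test, Benjamini-Hochberg over the 13309, 13363 and 11380 genes kept), all 16 livers in a single fit. The code was tested on simulated data with 200 changed genes. CPM uses TMM library sizes, SE is the log2 change over the square root of F, and the chi-square compares genes with at least 20 counts per pair of libraries. Overlap between groups was read from log2 CPM, prior count 2. Union exon lengths came from GENCODE M21 and promoter windows from RefSeq.

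The 40 members, the further gene lists and the marker lists were chosen with earlier results of these data known. Library values are given for members past the threshold, up to the 6 with the smallest p per comparison, and for Nfe2l2, Keap1, Hmox1, Nqo1, Gclc, Slc7a11 and G6pdx. Of the further lists, up to 4 genes with the smallest p are named. The alternatives tried were size factors and the Wald test of DESeq2 1.42.0, no filter, only the groups compared, the replicate number as a block, each library left out and, added after seeing the data, no MDKO libraries and other scalings of the control sets. Same-numbered Lyz2-Cre and MDKO libraries shared deviations from their group means (r = 0.24 to 0.53 over genes for the 4 numbers). In the 5 other liver pairs of groups and in the cultures at least 1 number gave r of 0.1 or lower. The highest single value was 0.56, for number 2 of Lyz2-Cre and NFATc3-MKO, whose number 3 gave −0.21. What these correlations come from was not tested.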

Additional observations from a re-analysis of the deposited data

Results flagged for a closer look

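Within single groups of 4 livers, 4 values stood far from the other 3, by Dixon's test of the gap over the range. They come from 60 groups tested over 15 members, and chance flags about 1 in 20. Gpx4, which reduces lipid peroxides, stood at 586.47 CPM in NFATc3-MKO replicate 3 and at 260.4 to 295.9 in the rest of that group. It was among the members tested only through its call in ASK1-MKO against NFATc3-MKO livers, which is lost without this library. Nqo1 stood at 52.443 CPM in Lyz2-Cre replicate 1 (others 29.6 to 31.6) and at 48.706 in MDKO replicate 1 (others 29.8 to 31.4), so the same number stood apart in both groups. Slc7a11 stood at 16.656 CPM in Lyz2-Cre replicate 2 and at 2.32 to 4.12 in its other libraries.

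By the edgeR interaction term, the ASK1 label's effect on 6 of 40 members (15%) differed between livers with and without the NFATc3 label. Over all genes 16.2% passed in either direction and 8.17% above 0. The calls of Gsta2 and Hmox1 were lost in 11 and 12 of 20 alternatives. The log2 differences were 1.20 for Gsta3, 0.86 for Nfe2l2, 0.75 for Gstm2, 1.10 for Abcc4, 0.91 for Gsta2 and 1.15 for Hmox1, all with 4 libraries per group and all resting on the MDKO libraries that lie nearest same-numbered controls.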

How the results depend on the processing

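Of 66 calls of a member in a comparison, 41 held in every alternative. Over all 816 alternative values 674 kept their call, 142 kept their direction and lost it, and 0 reversed. In NFATc3-MKO against Lyz2-Cre livers, 2 members became 1 with no filter, with only the groups compared and without the MDKO libraries. In ASK1-MKO against NFATc3-MKO livers, 9 became 5 with no filter and 4 with only the groups compared. In MDKO against NFATc3-MKO livers, 1 became 2 under DESeq2's Wald test and with the replicate block. In the check made, replicate numbers shared deviations throughout only between MDKO and Lyz2-Cre. The block left those groups at 0 calls. It changed no count but that for MDKO against NFATc3-MKO by over 1.5 times (8 for ASK1-MKO against Lyz2-Cre).

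Leaving out 1 library at a time gave 1 to 2 calls for NFATc3-MKO and 4 to 7 for ASK1-MKO against Lyz2-Cre, 0 for MDKO, 3 to 12 for ASK1-MKO against NFATc3-MKO, 1 to 2 for MDKO against NFATc3-MKO and 2 to 6 for MDKO against ASK1-MKO. It gave 4 to 9 for the interaction, 9 to 13 for NFATc3-MKI and 19 to 23 for ASK1-MKI. In the control sets 21 members were 2-fold higher and 2 lower in every such fit, and 23 and 2 with TMM scaling. Over all genes the count for NFATc3-MKO moved from 1124 to 1719 (DESeq2's Wald test), 218 (only the groups compared) and 694 (without the MDKO libraries), that for ASK1-MKO against NFATc3-MKO from 1697 to 671 (only the groups compared), and that for MDKO against NFATc3-MKO from 978 to 1635 and 283 (Wald test, only the groups compared). Leaving out 1 library also moved these counts by over 1.5 times. The count for NFATc3-MKO fell to 268, 377, 722 and 602 without Lyz2-Cre replicates 3, 4 and 1 and NFATc3-MKO replicate 3, and that for ASK1-MKO from 1126 to 587, 632, 640 and 730 without Lyz2-Cre replicates 3 and 4 and ASK1-MKO replicates 1 and 2. ASK1-MKO against NFATc3-MKO gave 2872 without NFATc3-MKO replicate 1 and 931 to 1111 without NFATc3-MKO replicates 3 or 4 or ASK1-MKO replicates 1, 2 or 3. MDKO against NFATc3-MKO gave 335, 346 and 567 without MDKO replicates 3 and 4 and NFATc3-MKO replicate 3, and MDKO against ASK1-MKO, 1028 in all, gave 547 to 684 without ASK1-MKO replicates 1 or 2 or MDKO replicates 3 or 4. The shares of all genes set beside the members move with these counts. Why they moved was not tested. Depth limits the members with few counts, such as Slc7a11 in livers.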
